A study of Bos taurus with 4 samples.

Results

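The 2 arrays described here compared the inner cell mass (ICM) of bovine blastocysts that had formed while MAPK signalling was inhibited with a pool of whole blastocysts. They were chosen by their labels, MAPK-inhibited ICM in one channel and the blastocyst pool in the other, and make up 2 of the 4 arrays of the series. The other 2 arrays carried control ICM against the same kind of pool and are used only to show where the MAPK-inhibited samples stand apart. Embryos of both groups were matured, fertilised and cultured in vitro, moved to fresh medium on day 5 and collected on day 9. One group received PD0325901, an inhibitor of the kinase MEK, and the other its solvent DMSO. ICMs were cut free by hand with needles and many embryos went into each RNA sample, so each ratio is an average over pooled embryos. The study states that its dissected ICMs kept a minority of trophectoderm (TE) cells. The pool consisted of whole blastocysts and therefore held ICM cells as well as TE. Fewer cells of a type and less RNA per cell cannot be told apart in such samples. The study describes the pool as an identical reference for all its arrays and reports no inhibitor treatment of it. Tissue and treatment can therefore not be told apart in a ratio to it.

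A blastocyst is a hollow ball whose outer wall, the TE, pumps fluid and later forms the placenta, while the ICM inside gives rise to the embryo and to the hypoblast, the forerunner of the yolk sac. In mouse embryos FGF signals act through MEK and the kinase ERK to drive ICM cells towards hypoblast and away from epiblast. Hypoblast is marked by *GATA6* and epiblast by *NANOG* and *SOX2*. MEK inhibition blocks this route in mouse, while the study cites a more moderate effect in bovine embryos. The arrays show which transcripts set the ICM formed under the inhibitor apart from the pool of whole blastocysts.

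Values are log2 ratios of ICM over pool, where 1 is a 2-fold higher signal in the ICM and -1 a 2-fold lower one. Replicate a carried the ICM in Cy3 and replicate b in Cy5, so a dye bias pushes both arrays in opposite directions and cancels in their mean, but it remains in the SD of the 2 arrays. Of 43653 probes, 27952 had a gene name. They stood for 12545 genes, each read from its brightest probe, and 11919 of these genes were above background in the ICM or the pool on both arrays. The pool is a common reference and not a group of samples, so ratios to it are described without a test.

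Replicate a of the MAPK-inhibited ICM stood apart in spot quality. On it 34.2% of probes had an uneven spot in either channel, defined as a pixel SD above 0.5 of the spot's mean, against 10.3% on replicate b and 0.101% to 0.22% on the control arrays. Its ICM channel was above background for 83.7% of probes, against 97.5% on replicate b. Genes 2-fold from the pool on one array and within 0.3 log2 units of it on the other numbered 62 on replicate a and 39 on replicate b, and 60 and 25 of them had uneven spots there. The control arrays held 3 and 4 such genes. Calls were therefore made only where both arrays passed 2-fold, and uneven spots of named genes are given beside their values or, for list members, together ahead of the lists.

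In all, 71 of 11919 genes (0.596%) lay at least 2-fold above the pool on both arrays and 8 (0.0671%) at least 2-fold below it. In control ICM 11 of 12526 genes (0.0878%) were that far above the pool and 0 (0%) that far below. At 1.5 log2 units the MAPK-inhibited ICM had 18 genes above the pool and 0 below, and at 2 units 3 genes above, *NANOG*, *S100B* and *SLC35G2*. The split of 71 to 8 became 36 to 15 when the arrays were centred on their medians in place of loess, and 94 to 29 with the authors' processed ratios. Leaving out replicate a gave 202 above and 64 below, and leaving out replicate b 140 and 43. A call needed 2-fold on every array used, so these counts could not fall. With uneven spots left out, 40 genes lay above and 7 below, 39 and 6 of them shared with the full counts. The 71 genes had a median log2 ratio of 1.29 in MAPK-inhibited ICM and of 0.68 in control ICM. Of the 71, 70 also lay above the pool on both control arrays, and 69 had ratios on both MAPK-inhibited arrays above those of both control arrays, as 19.9% of all genes did. The 71 were chosen for high values on these arrays, so nothing is read from that count. Of the 52 with several probes, 7 had a mean of at least 2-fold on every probe.

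**Figure D1:**
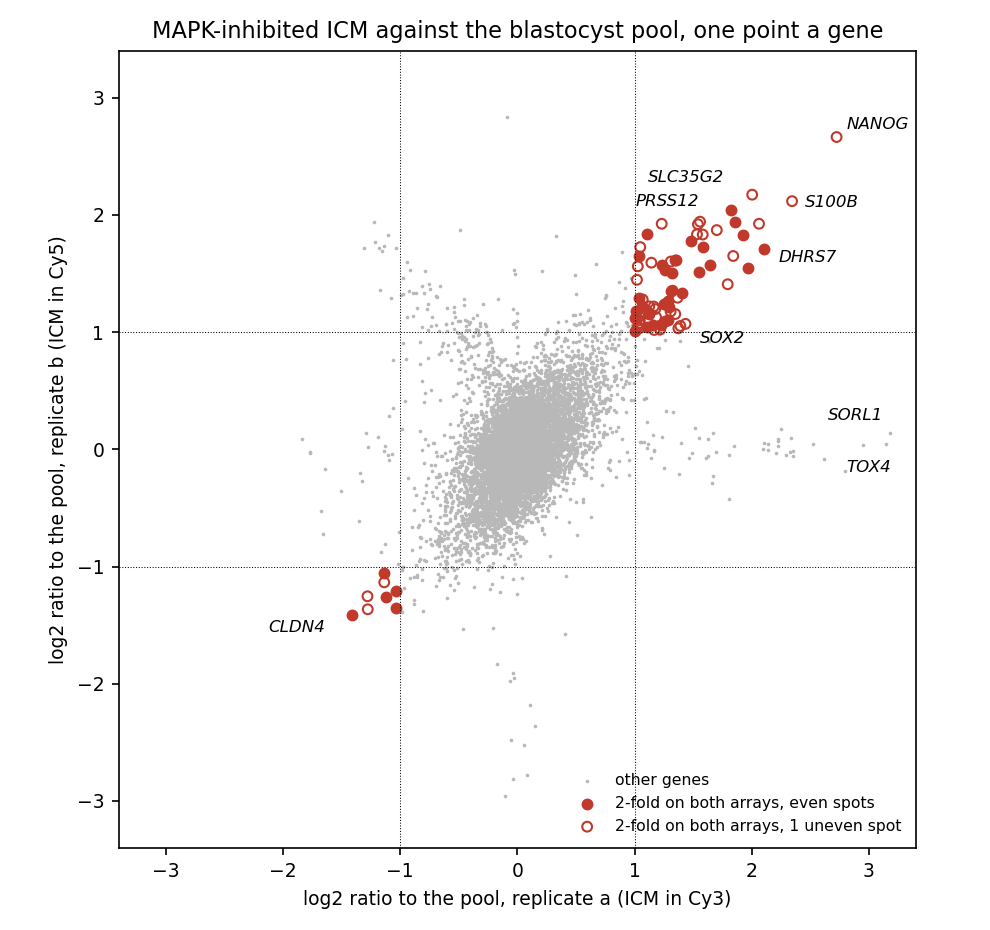
Each point is a gene, with its log2 ratio of MAPK-inhibited ICM over the blastocyst pool on replicate a on the x axis and on replicate b on the y axis, and dotted lines at 2-fold. The 71 genes at the upper right include *NANOG* at 2.72 and 2.66, while *SORL1* and *TOX4* lie near the x axis, high on replicate a alone.

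*NANOG*, a homeobox transcription factor of the epiblast, was the gene farthest above the pool. Its spot gave a mean signal of 22200 in the ICM channel against 5550 in the pool on replicate a, and of 12400 against 1730 on replicate b, before normalization. The log2 ratios were 2.72 and 2.66, a mean of 2.69 ± 0.042 (SD, n = 2) or 6.47-fold, against 1.39 and 1.32 on the control arrays. Both MAPK-inhibited arrays thus lay far above both control arrays, with no overlap. On replicate b the spot was uneven and its pool signal was below the 5050 seen on the control array of the same dye, and a ratio of spot medians brought the mean to 2.38. A second *NANOG* probe, with even spots on both arrays, gave 1.71 and 1.75, and the dimmest of its 3 probes gave 0.45 and 0.64.

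*SOX2*, a partner of *NANOG* in pluripotent cells, had log2 ratios of 1.43 and 1.07, and 1.03 and 0.90 in control ICM. The groups did not overlap, but the gap between them was smaller than that between the 2 MAPK-inhibited arrays, and the spot on replicate a was uneven. Its probes ranged from 0.07 to 1.77 in mean log2 ratio, and the probe with even spots on both arrays that was brightest gave 0.36. *PRDM14*, a regulator of the germ line and of pluripotency in mouse, had ratios of 0.58 and 0.63, which overlapped the 0.64 and 0.42 of control ICM. *LIN28B*, which encodes an RNA-binding protein, gave 0.06 and 0.03.

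*S100B*, the gene of a small calcium-binding protein, gave signals of 1780 in the ICM and 420 in the pool on replicate a, and of 2450 and 533 on replicate b. The log2 ratios of 2.34 and 2.12 compared with 0.56 and 0.49 in control ICM. The spot on replicate a was uneven and that on replicate b was not. The 2 other *S100B* probes gave mean ratios of -0.09 and 0.09, so the high value rested on 1 of 3 probes. *PRSS12*, which encodes a secreted serine protease, had ratios of 1.82 and 2.04 against 0.78 and 0.75 in control ICM. Its spots were even, and its second probe gave 1.68 and 1.97.

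Among genes with even spots on both arrays, 33 lay 2-fold above the pool and 5 below. Behind *PRSS12* came *DHRS7*, a short-chain dehydrogenase gene, at 2.10 and 1.70, and *MOB3C*, of the MOB kinase activator family, at 1.86 and 1.94. *KLK7*, a kallikrein protease gene, stood at 1.93 and 1.83 and *TMEM243*, a gene for a membrane protein, at 1.97 and 1.55. For each of these 5 genes both MAPK-inhibited arrays exceeded both control arrays, as for 19.9% of all genes. The 5 were taken as the highest on the MAPK-inhibited arrays, so nothing is read from that. The control values ranged from 0.63 (*DHRS7*) to 1.17 (*KLK7*). *IGFBP3*, which encodes a binding protein for insulin-like growth factors, had ratios of 1.59 and 1.73 against 0.65 and 0.56 in control ICM.

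Next in order came *ARF5*, a small GTPase gene of the Golgi, with 1.48 and 1.78, and *DYNLL2*, a dynein light chain gene, with 1.65 and 1.57 where the control arrays gave 0.54 and 0.19. *LAPTM4B*, which encodes a lysosomal membrane protein, had 1.36 and 1.62, close to the 1.13 and 1.31 of control ICM. *STMN1*, which encodes the microtubule regulator stathmin, had 1.32 and 1.50, and *TACC2*, a centrosomal gene, had 1.28 and 1.27. *RANGAP1*, which activates the GTPase of Ran in nuclear transport, spread widely over the arrays, at 1.10 and 1.84, and the control values of 0.66 and 0.28 lay below both.

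The leading 20 genes with even spots held 8 more. *SCD5*, a fatty acid desaturase gene, had 1.55 and 1.51, and *PMM1*, a phosphomannomutase gene, 1.04 and 1.65. *PLAT*, which encodes tissue plasminogen activator, had 1.26 and 1.53, and *MME*, the gene of the peptidase neprilysin, 1.40 and 1.33. *TNFAIP6*, a hyaluronan-binding protein gene, had 1.35 and 1.61, *IRF1*, an interferon-regulated transcription factor gene, 1.24 and 1.57, *CACHD1*, related to calcium channel subunits, 1.30 and 1.21, and *MGC127133* 1.31 and 1.35. Of these 8 genes none had a control array above 1.01, the value of *TNFAIP6* on control replicate a.

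**Figure D2:**
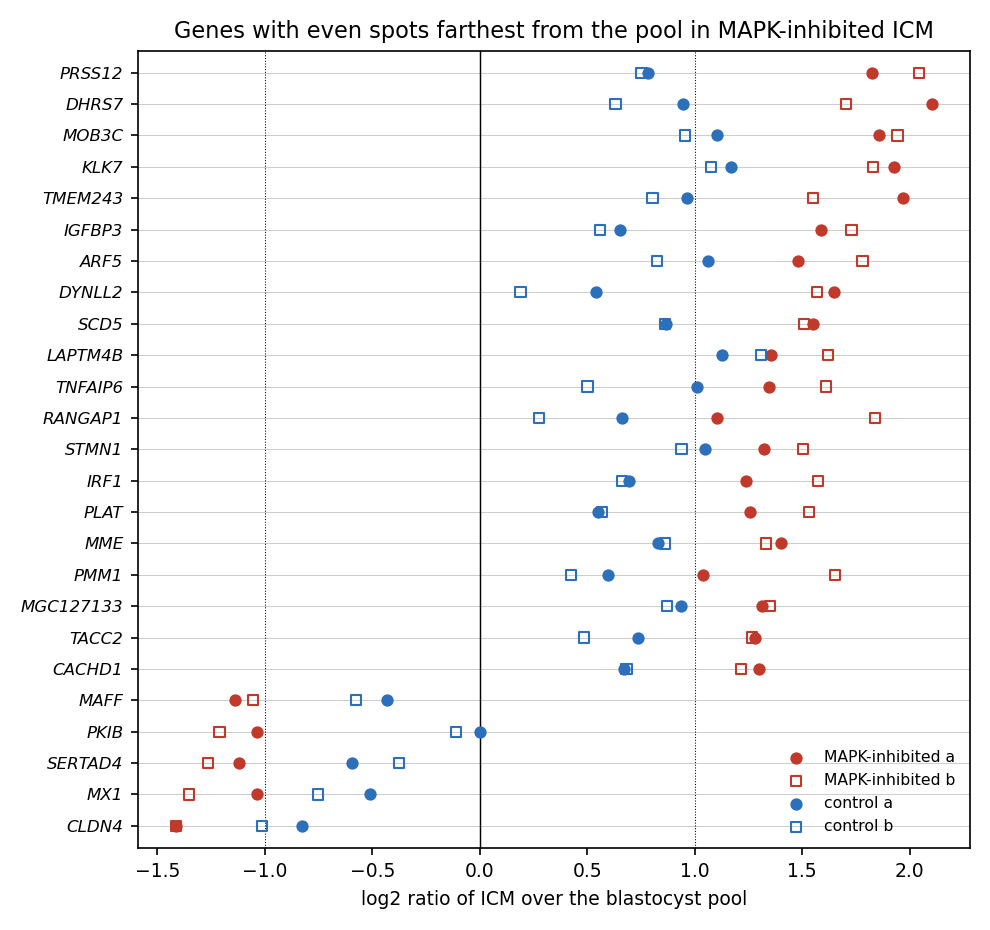
Log2 ratios to the pool on each of the 4 arrays (x axis) for the 20 highest and all 5 lowest genes with even spots, with MAPK-inhibited ICM in red and control ICM in blue, replicate a filled and replicate b open. *PRSS12* is highest with 1.82 and 2.04 and *CLDN4* lowest with -1.41 on both arrays. For every gene shown the red points lie farther from 0 than the blue ones. The genes were chosen for their values on the MAPK-inhibited arrays, so nothing is read from that.

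Several of the highest genes had an uneven spot on one of the 2 arrays. *SLC35G2*, a solute carrier family gene, had log2 ratios of 2.00 and 2.17 against 0.41 and 0.29 in control ICM. *CAV1*, the gene of the membrane coat protein caveolin, had 2.06 and 1.92 against 1.25 and 1.21. *AK4*, which encodes a mitochondrial adenylate kinase, had 1.70 and 1.87. With spot medians its mean fell to 0.91, below 2-fold, and its second probe gave a mean of 0.18. *FBP1*, the gluconeogenic enzyme fructose bisphosphatase, had 1.56 and 1.94 where control ICM gave 0.20 and 0.10. *KLRC1*, a lectin-like receptor gene of natural killer cells, had 1.84 and 1.65 against 0.47 and 0.30. No gene called above or below the pool was uneven on both arrays: 24 of the 71 had the uneven spot on replicate a only and 14 on replicate b only.

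The 8 genes below the pool were led by an epithelial gene. *CLDN4*, which encodes a tight junction claudin, had ICM signals of 307 and 356 against pool signals of 1400 and 1010. Its log2 ratio was -1.41 on both arrays, so that the pool was 2.66-fold higher, and -0.83 and -1.01 on the control arrays. Its second probe, also even, gave -0.11 and -0.04, so the low value rested on 1 of 2 probes. *PLAU*, the gene of the urokinase plasminogen activator, had -1.28 and -1.36 with an uneven spot on replicate b, against -0.47 and -0.66 in control ICM. Its other, dimmer probes gave means of -0.32 and -0.25. *MX1*, an interferon-induced GTPase gene, had -1.04 and -1.35 on its brightest probe, with ICM signals of 80.1 and 80.9. Its other probes gave means of -0.02 and 0.12, so the low value rested on 1 of 3 probes. *SERTAD4* had -1.12 and -1.26, *PKIB*, a gene for an inhibitor of protein kinase A, -1.03 and -1.21, and *MAFF*, a small Maf transcription factor gene, -1.14 and -1.06. The other *MAFF* probes gave means of -0.135 and 0.018 and the second *PKIB* probe -0.41. Means of the *SERTAD4* probes ran from -1.19 to 0.06. The other 2 were *APP*, the gene of the amyloid precursor protein, at -1.28 and -1.25, and *TM4SF1*, at -1.14 on both arrays. *TM4SF1* encodes a tetraspanin-like membrane protein. Both genes had an uneven spot on 1 array and were named after their values were seen. Probe means ran from -1.27 to -0.25 for *APP* and from -1.14 to -0.92 for *TM4SF1*. These 8 genes had a median of -1.19 in MAPK-inhibited ICM and of -0.53 in control ICM, and for all 8, chosen for low values on these arrays, both MAPK-inhibited arrays lay below both control arrays, as did 17.5% of all genes.

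Among the list members named from here on, an uneven spot on replicate a was found for *SLC23A1*, *PAG8*, *TFAP2C*, *DSC2*, *AQP1*, *F11R*, *LAMC1*, *GATA4*, *IER2*, *ERBB2*, *ID2*, *LDHA*, *INSIG1*, *HERC5*, *KLF4*, *BMP15* and *ACTB*. On replicate b it was found for *TFAP2A*, *SPRED1*, *IER5*, *DUSP4*, *MCM3*, *CCNB1*, *P4HA3*, *ID3*, *EBP*, *TBX3*, *CYP19A1* and *GDF9*. The gene lists below, other than the study's own, were chosen with earlier results of these data known. Shares of their members 2-fold from the pool are therefore description only.

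TE genes lay in part below the pool. Of 32 measured TE genes, 15 were below the pool on both arrays, 7 above it on both, and 10 split, against 3819, 4014 and 4712 of all 12545 genes. Their median log2 ratio was -0.01 (-0.15 on replicate a and -0.01 on replicate b), and that of all genes 0.01. *GATA2*, a TE transcription factor gene, had -1.66 on replicate a, where the spot was uneven, and -0.72 on replicate b. With spot medians its mean moved from -1.19 to -0.48, and its other probes gave means from -0.44 to 0.11. *PLAC8* had -0.90 and -0.66, *SLC23A1*, a vitamin C transporter gene, -0.60 and -0.45, and *PAG2*, a pregnancy-associated glycoprotein gene of the ruminant trophoblast, -0.26 and -0.49. All 8 *PAG2* probes had negative means, from -0.52 to -0.19. Other TE markers stayed near the pool: *GATA3* had 0.01 and 0.16, *TFAP2A* -0.16 and -0.06, *PAG8* 0.21 and 0.06, and *AQP3*, a water channel gene, -0.09 and -0.07. In control ICM *TFAP2A* had been lower, at -0.57 and -0.59. *TFAP2C* had -0.81 and 1.04 on a very bright probe that was likewise opposite by dye in control ICM, at -1.40 and 1.75, so no direction is given. *CDX2*, *KRT8*, *KRT18* and *IFNT* were not analysed here.

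Genes of epithelial transport and junctions had the lowest median of the lists of known function. Of 32 measured, 20 lay below the pool on both arrays (62.5%, against 30.4% of all genes) and 6 above (18.8%, against 32%). Their median log2 ratio was -0.17 (-0.12 and -0.22), against -0.04 in control ICM. Genes below the pool beside *CLDN4* included *EZR*, which encodes the membrane linker ezrin, at -0.80 and -0.95. The desmosomal genes *DSC2*, at -0.83 on both arrays, and *DSP*, at -0.60 and -1.02, did so too. *ATP1B1*, a subunit gene of the sodium pump, had -0.28 and -0.35. On the other side stood *AQP1* at 0.25 and 0.68 and *F11R*, a junctional adhesion molecule gene, at 0.52 and 0.26, with a mean of -0.36 on the lowest of its 3 probes. Only *CLDN4* passed 2-fold below the pool, 1 of 31 above background (3.23%, against 0.0671% of all genes).

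Hypoblast and yolk sac genes were divided. Of 32 measured, 16 lay below the pool on both arrays (50%, against 30.4% of all genes) and 7 above (21.9%, against 32%). Their median was -0.04. In control ICM 8 were below and 16 above. *GATA6* had ICM signals of 619 and 740 and pool signals of 1680 and 1120. Its log2 ratios of -0.81 and -0.61 lay below the -0.19 and -0.12 of control ICM without overlap, and its second, dimmer probe gave -0.13 and -0.05. The study reports GATA6 protein in all cells of its TE samples. A *GATA6* ratio to whole blastocysts therefore does not read hypoblast alone. *LRP2*, an endocytic receptor gene, had -0.74 and -0.61, and the laminin genes *LAMC1* and *LAMB1* had -0.26 and -0.89, and -0.27 and -0.77. *SOX17*, at -0.05 and -0.03, and *GATA4*, at -0.17 and 0.13, were close to the pool, and *SOX17* was dim, with ICM signals of 96.5 and 94.2. Highest of the 7 above it were *SPARC*, which encodes a matrix glycoprotein, at 1.58 and 1.83 with an uneven spot on replicate b, *APOA1*, an apolipoprotein gene, at 0.89 and 0.44, and *FLRT3*, a membrane adhesion gene named after its values were seen, at 0.93 and 0.32.

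Several genes above the pool in control ICM had lower ratios in MAPK-inhibited ICM, and *FST*, *SERPINA5* and *VIM* lay below the pool on both arrays there. *FST*, the gene of the activin antagonist follistatin, had log2 ratios of 1.06 and 1.01 in control ICM and of -0.20 and -0.28 in MAPK-inhibited ICM, where its signal on replicate a was 52.5, just above the background limit of 48.0. *NID1*, a basement membrane gene, had 0.96 and 0.91 in control ICM and 0.19 and -0.35 after inhibition. *SERPINA5*, a protease inhibitor gene, had 1.57 and 1.25 against -0.47 and -1.53, and *VIM*, the intermediate filament gene vimentin, 0.71 and 0.60 against -0.53 and -0.89. *ADD3*, a membrane skeleton gene, had 1.16 on both control arrays and 0.25 and 0.08 here, and *RALGPS2* 1.16 and 1.26 against 0.33 on both arrays. *KIT*, a receptor tyrosine kinase gene, had 0.52 and 0.40, below the 1.10 and 1.25 of control ICM. For all 7 genes both MAPK-inhibited arrays lay below both control arrays, as did 17.5% of all genes. *FST*, *SERPINA5*, *ADD3* and *RALGPS2* were picked for large differences without overlap, so nothing is read from that. *FST*, *NID1*, *ADD3* and *KIT* had an uneven spot on replicate a.

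**Figure D3:**
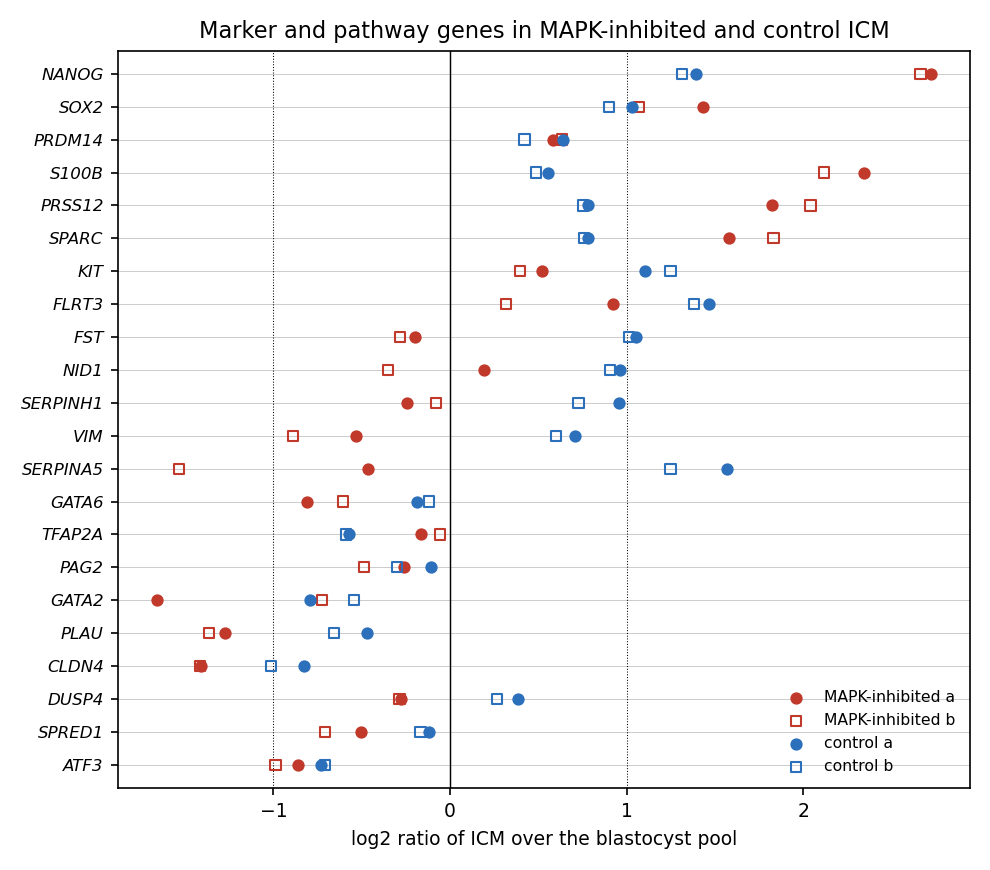
Log2 ratios to the pool (x axis) on the 4 arrays for epiblast, hypoblast, TE and ERK pathway genes, with MAPK-inhibited ICM in red and control ICM in blue, replicate a filled and replicate b open. *NANOG* and *S100B* lie above 2 in MAPK-inhibited ICM, while *FST*, *VIM* and *SERPINA5* lie above 0 in control ICM and below 0 in MAPK-inhibited ICM.

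The difference between the ICM groups was tested with limma on all 4 arrays, with a term for dye. With Benjamini-Hochberg adjustment 0 of 43653 probes (0%) passed 0.05, and the lowest adjusted p was 0.263. At an unadjusted p under 0.05 there were 2403 probes higher and 2022 lower in MAPK-inhibited ICM, and 66 of the 71 genes above the pool were higher, against 8.77% of all genes. The 71 were chosen on the same MAPK-inhibited arrays, so this count is no independent evidence. *NANOG* differed by 1.34 (SE 0.071, limma adjusted p = 0.266) and *S100B* by 1.71 (SE 0.081, limma adjusted p = 0.263). Without background correction 43 probes passed, and with the authors' processed ratios 319. No label names the cultures behind replicates a and b, so the p-values measure only the spread between these samples, with 1 residual degree of freedom.

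Genes that ERK signalling induces or that damp it were mostly below or near the pool. Of 28 measured, 13 lay below the pool on both arrays (46.4%, against 30.4% of all genes) and 7 above (25%, against 32%). Their median was -0.07, against -0.05 in control ICM, where 14 lay below the pool on both arrays and 5 above. *ATF3*, a stress-induced transcription factor gene, had -0.86 and -0.99, *SPRED1*, an inhibitor of the pathway, -0.50 and -0.71, *MYC* -0.42 and -0.69, and *JUN* -0.42 and -0.61. For *SPRED1* the control values of -0.12 and -0.17 were higher, and for *ATF3* those of -0.73 and -0.71 were closer. For *MYC* the control values of -0.35 and -0.50, and for *JUN* those of -0.32 and -0.51, overlapped the MAPK-inhibited ones. Immediate early genes *IER2* and *IER5* lay above the pool, at 0.11 and 0.34, and at 0.24 and 0.22. *DUSP4*, a phosphatase gene that inactivates ERK, was named after its values were seen. It had -0.28 and -0.29 in MAPK-inhibited ICM and 0.39 and 0.27 in control ICM. Of the 22 FGF and receptor tyrosine kinase genes, 9 were above and 7 below the pool, with *EFNA1*, an ephrin ligand gene that had 0.02 and -0.06 in control ICM, at -0.83 and -0.94, *MET* at -0.51 and -0.87, and *ERBB2* and *ERBB3* at 0.43 and 0.64, and 0.56 and 0.43.

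Cell cycle and DNA replication genes had the highest median among the lists of known function, 0.28 (0.28 and 0.20), against 0.13 in control ICM and 0.01 for all genes. Of 28 measured, 17 lay above the pool on both arrays, which is 60.7% where all genes had 32.0%, and 6 below. The replication helicase genes *MCM5* and *MCM3* had 0.55 and 0.81, and 0.69 and 0.61, *RRM1*, a ribonucleotide reductase gene, 0.83 and 0.34, and the cyclin gene *CCNB1* 0.71 and 0.40. *CCND2*, a cyclin gene of the early cycle, lay below at -0.48 and -0.34, and *CDKN1B*, a cell cycle inhibitor gene, at -0.08 and -0.46. None of these genes passed 2-fold. RNA splicing genes, with 24 of 48 above the pool and 8 below, had a median of 0.11 that became -0.01 with median centring, so their direction was not settled.

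Matrix and mesenchymal genes had members at both ends. Of 39 measured, 14 lay above and 14 below the pool. Of 37 above background, 3 (8.11%, against 0.596% of all genes) passed 2-fold above the pool, in a list chosen with earlier results known. These were *CAV1*, *SPARC* and *P4HA3*, a collagen prolyl hydroxylase gene with 1.33 and 1.35. *COL12A1*, a collagen gene, had 0.67 and 0.68 against -0.14 and -0.03 in control ICM, with an uneven spot on replicate b. *MYL9*, a myosin light chain gene, had -0.67 and -0.63 on its brightest probe, uneven on replicate a, and a mean of 2.05 on the highest of its 5 probes, so no direction is given. Among targets of BMP, TGF-beta and WNT signalling *ID1*, an inhibitor of differentiation factors, had 1.00 and 1.12 and control values of 1.14 and 0.91, which overlapped. *ID3* had 0.44 and 0.39, *TCF7L2* 0.31 and 0.40, and *ID2* 0.10 and -0.52.

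Energy metabolism genes split by enzyme. Of 28 glycolysis and hypoxia genes, 10 were above the pool on both arrays and 12 below. Of 26 above background, 3 (11.5%, against 0.596% of all genes) passed 2-fold above the pool, in a list chosen with earlier results known. These were *AK4*, *FBP1* and *TKTL1*, a transketolase-like gene with 1.12 and 1.16 that was named after its values were seen. *PDK1*, which restrains pyruvate entry into mitochondria, had -0.37 and -0.72, *LDHA*, a lactate dehydrogenase gene, -0.46 and -0.60, and *HK2*, a hexokinase gene, -0.32 and -0.28. Sterol synthesis genes centred on the pool, with a median of -0.02 against -0.17 in control ICM. Among them *EBP* had 0.87 and 0.98, and *IDI1* and *INSIG1* had -0.25 and -0.45, and -0.05 and -0.77. Interferon-stimulated genes had a median of 0.00. *IRF1* and *HERC5*, the latter at 1.21 and 0.98, lay above the pool. Below it lay *MX1*, on its brightest probe only, *USP18*, at -0.88 and -1.28, and *IFI30*, at -0.91 and -1.10.

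The pluripotency and epiblast list was led by few genes. Of 17 measured, 8 were above the pool and 3 below, with a median of 0.06 against 0.08 in control ICM. Of 16 above background, 2 (12.5%, against 0.596% of all genes) passed 2-fold above the pool, *NANOG* and *SOX2*. This list too was chosen with earlier results known. *STAT3* had 0.50 and 0.91 and *SOX15* 0.35 and 0.95, while *KLF4*, a factor of naive mouse stem cells, had -0.31 on both arrays, against 0.14 and 0.00 in control ICM, and *TBX3* -0.34 and -0.55. *POU5F1*, *OTX2*, *TDGF1* and *FGF4* were not analysed here.

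**Figure D4:**
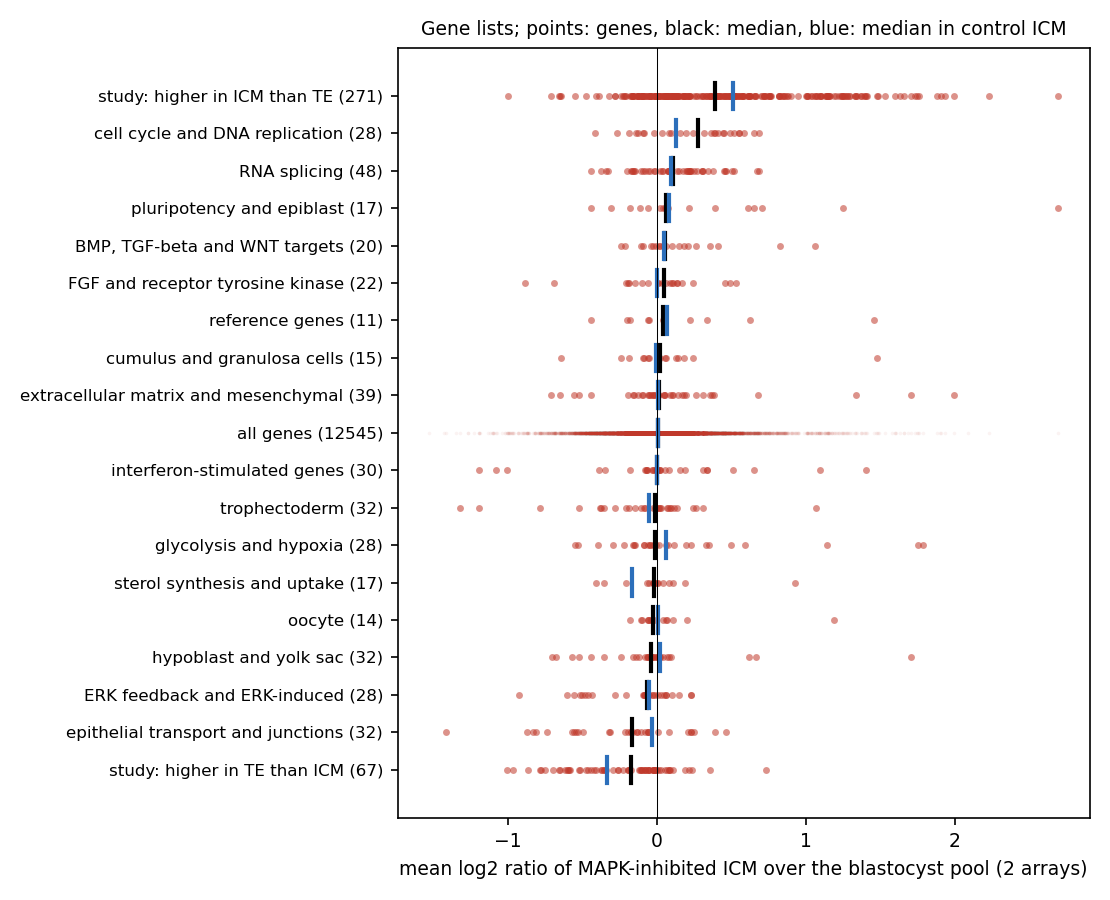
Mean log2 ratio of MAPK-inhibited ICM over the pool (x axis) for each measured gene of each list, with the number of genes in brackets, the median as a black bar and the median in control ICM as a blue bar. Cell cycle genes have a median of 0.28, junction genes one of -0.17, and all genes one of 0.01.

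Lists that the study had chosen on other arrays of dissected ICM and TE gave a wider frame. Of 271 measured genes listed as higher in ICM than in TE, 184 lay above the pool on both MAPK-inhibited arrays and 33 below, and 224 and 17 did so in control ICM. Their median log2 ratio was 0.39 in MAPK-inhibited and 0.51 in control ICM, and 48 of 264 above background (18.2%) were 2-fold above the pool where all genes gave 0.596%. In control ICM 10 genes of this list were 2-fold above the pool, against 11 of 12526 among all genes (0.0878%). Members of the list that lay below the pool here but above it in control ICM included *SERPINA5* and *VIM*. Among the 67 genes of the TE list 41 lay below the pool and 9 above, with a median of -0.17 against -0.33 in control ICM. More genes of the ICM list lay 2-fold above the pool after inhibition, while its median was lower, and neither difference was tested. Calls above the pool also rose among all genes, from 11 to 71. Ratios of all genes spread more widely on the MAPK-inhibited arrays, with SDs of 0.297 and 0.347 against 0.224 and 0.238 on the control arrays. Nothing about the list is therefore read from its count.

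Markers of cells that could accompany the embryos were near the pool with single exceptions. Of 15 cumulus and granulosa genes, 4 were above and 4 below the pool, with a median of 0.02. *TNFAIP6* was 2-fold above it, *HSD3B1*, a steroid dehydrogenase gene, had -0.77 and -0.52 and a mean of 0.47 on the highest of its 3 probes, and *CYP19A1*, the aromatase gene, 0.16 and 0.20. Summed ICM signals of this list, before normalization, were 5820 and 11400 and pool signals 11300 and 8410. Over all genes the same sums were 14100000 and 21900000 in the ICM and 23300000 and 16900000 in the pool. Of 14 oocyte genes, 4 were above and 4 below, with a median of -0.02. *NLRP14* had 1.18 and 1.20 with an uneven spot on replicate b, and *GDF9*, *BMP15* and *ZAR1* ranged from -0.15 to 0.09. The summed signals were 2620 and 2980 in the ICM and 3330 and 3020 in the pool. Whether such cells had a part in the ratios was not tested. Of 11 genes often used as references, *ACTB* had 1.31 and 1.60 on its brightest probe and 0.01 on the lowest of its 3 probes, *H2AZ1* 0.59 and 0.66, and *HPRT1* -0.21 and -0.68, and their median was 0.04.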

How the data were processed

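Gene expression was measured on 4 bovine 2-colour arrays, each with 1 ICM sample and the blastocyst pool, 2 per group. The deposited intensity values were spot means and local backgrounds that the authors quantified with Imagene. The authors also deposited processed log2 ratios; per their methods mean spot signals were loess-normalized and a dye bias of single genes was then corrected, which brings the dye-swapped arrays closer together. The cRNA was amplified in 2 rounds before labelling. Their direction, ICM over pool, was set against the scanner values, with column medians of 0.00412 to 0.0154, and they served as an alternative. Groups came from the labels.

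Backgrounds were corrected with normexp on the background median (offset 50), arrays normalized by loess and 1567 control spots left out, in R 4.3.3 with limma 3.58.1. The brightest probe stood for each gene. A gene was above background where the ICM or the pool passed the 95th percentile of the negative controls on both arrays. Calls needed 2-fold on both arrays. MAPK-inhibited and control ICM were compared with lmFit and eBayes, with dye, which equals the replicate letter, as a block. The median signals per array were 110 to 175 in the ICM channel and 135 to 183 in the pool, and the number of arrays limits the precision. The fit was tested on simulated data.

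Named genes were the 20 highest and lowest called genes with even spots. The leading members of each list (4 of its leading sign and 2 of the other) were also named. So were marker genes, the 10 largest gaps between arrays, and the 5 largest and 5 smallest differences from control ICM. These differences came from genes 2-fold from the pool in either group whose ICM groups did not overlap. The members and lists were chosen with earlier results of these data known. Alternatives were the background correction, the normalization, the authors' ratios, even spots only, the mean of all probes, no dim filter, no block and leaving out an array. Spot medians and a call on the mean of both arrays were added after seeing the data.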

Additional observations from a re-analysis of the deposited data

Results flagged for a closer look

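*COL12A1* lay on the other side of the pool in MAPK-inhibited ICM than in control ICM, with a mean log2 ratio of 0.68 against -0.08 and an uneven spot on replicate b. *FST*, at -0.24, *VIM*, at -0.71, and *SERPINA5*, at -1.0, lay below the pool on both MAPK-inhibited arrays and above it on both control arrays, where their means were 1.04, 0.66 and 1.41. The mean of *TOX4* was 1.49, from 2.95 on replicate a and 0.04 on replicate b, against -0.17 in control ICM. *FSHR* had 0.13, with an uneven spot on replicate b, and lay below the pool on both control arrays. The limma test of the difference between the ICM groups covered these genes, and with Benjamini-Hochberg adjustment 0 of 43653 probes passed, with 43 passing without background correction and, at an unadjusted p under 0.05, 2403 higher and 2022 lower.

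Among the 15701 probes without a gene name, 48 lay at least 2-fold above the pool on both MAPK-inhibited arrays and 21 at least 2-fold below, against 5 and 3 on the control arrays.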

How the results depend on the processing

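Of the genes at least 2-fold above the pool, 71 in all, there were 91 without background correction, 35 with normexp on the background mean, 36 with median centring, 94 with the authors' ratios, 40 with even spots only and 32 with the mean of all probes. The 8 genes below became 16, 4, 15, 29, 7 and 1 in the same order. With 1 array left out the counts, which could then not fall, were 140 to 202 above and 43 to 64 below. With alternatives chosen after seeing the data, spot medians gave 57 and 9, and a 2-fold mean of both arrays gave 120 and 28. The limma count of 0 became 43 without background correction and 319 with the authors' ratios. It stayed at 0 with the other settings tried, also with no replicate block, so pairing the arrays by dye changed no call there. Leaving out an array leaves no residual degree of freedom beside the dye term, so no count is given. The median of RNA splicing genes turned to -0.009 with median centring, and *S100B* to -0.086 with even spots only, which take another of its probes. Over the settings the median of pluripotency genes ranged from 0.02 to 0.36 and that of junction genes from -0.24 to -0.12. Of the values for single named genes under the alternatives, 1034 moved by less than 1 SD and 320 by more.

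Normexp left negative control spots at a median of 54.4 to 144, so ratios of dim genes lie closer to 0 than their signals would give. The uneven spots of replicate a limit the genes read from it.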

Other observations

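Genes singled out after their values were seen included several of plasminogen activation, whose enzymes cut matrix proteins. *PLAT* lay above the pool at 1.26 and 1.53 and *PLAU*, on its brightest probe, below it at -1.28 and -1.36. *SERPINA5*, which inhibits serine proteases of this kind, had -0.47 and -1.53. Chromatin genes likewise singled out were *KDM2B*, *BCOR* and *RCOR2*. *KDM2B*, a histone demethylase gene, had 1.37 and 1.29 and *BCOR*, a gene of the same repressive complex, 1.00 and 1.01. *RCOR2*, a corepressor gene, had 1.23 and 1.92. The spots of *KDM2B* and *RCOR2* were uneven on replicate a. In control ICM the means were 0.63, 0.76 and 0.53. Other probes gave means from -0.035 to 0.33 for *KDM2B* and from 0.01 to 0.60 for *BCOR*.

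Bright genes far apart between the arrays included *DENND5A*, at -1.22 on replicate a and 1.94 on replicate b, *SORL1*, at 3.18 and 0.14, *PIGL*, at -1.30 and 1.72, *SNX27*, at -1.21 and 1.76, *MTSS1*, at -1.10 and 1.82, and *TOX4*, at 2.95 and 0.04. Of these *DENND5A* had even spots on both arrays. In all, 10 genes were 2-fold below the pool on replicate a and 2-fold above it on replicate b, 25 were so in control ICM, and 0 were the reverse in either group.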
